A study of Mus musculus with 2 samples.

Results

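The spots described here are mixed-myosin muscle spots: positions in mouse skin sections that lay over skeletal muscle and in which *Myh4* did not dominate the fast myosin heavy chains. They were chosen by 4 conditions: at least 200 UMIs (counted transcript molecules), at least 3% of them from *Myh1*, *Myh2*, *Myh4*, *Mylpf*, *Ckm* and *Atp2a1*, at least 5 UMIs from *Myh1*, *Myh2* and *Myh4*, and less than 75% of those 5 or more from *Myh4*. These conditions took 187 of 479 muscle spots, of 2174 spots with at least 200 UMIs and of 3175 spots over tissue in all. The other 292 muscle spots, with 75% or more *Myh4*, are called Myh4-dominated here, and a further 41 spots with enough muscle transcripts but fewer than 5 myosin UMIs were in neither class. Because the conditions read these 6 genes, the values of the 6 genes, and every contrast between mixed and Myh4-dominated spots, are given as descriptions with no test.

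The tissue was whole skin from hairless female mice of the SKH-1 strain, 10 to 12 weeks old, and its sections were profiled on 2 Visium capture areas, glass fields of barcoded spots that each cover a small patch of tissue with several cells or parts of cells. There were 4 groups: ultraviolet radiation (UVR) plus 9-cis HPR at 0.03%, UVR plus retinol at 0.1%, UVR alone, and normal skin as the control. Each group was 1 section: both treated sections shared 1 area, and the UVR and control sections shared the other. The labels spell out neither HPR nor a radiation dose, name no vehicle-treated section and do not say how many animals were used, so no variation between animals could be measured and no p-value was computed. Intervals in brackets are 95% and cover counting error only.

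Skeletal muscle fibres are typed by their myosin heavy chain, the motor protein of the thick filament. In mice *Myh4* encodes the chain of the fastest, most glycolytic fibres (type 2B), *Myh1* that of type 2X fibres and *Myh2* that of type 2A fibres, which contract more slowly and rely more on mitochondria, and *Myh7* that of slow fibres. The genes *Myh2*, *Myh1* and *Myh4* stand side by side in 1 cluster, and fibres can shift between neighbouring types. Under the skin of mice lies a thin sheet of such muscle, the panniculus carnosus, which is mostly fast.

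The 3 myosin genes that define these spots lie in the order *Myh2*, *Myh1*, *Myh4* on the plus strand of chromosome 11, and their promoters are shown because the spots are sorted by the balance of these transcripts. The 120 bases before each RefSeq start (GRCm38.p6, the assembly also called mm10) are given below at chr11:67199982-67200101 for *Myh1*, chr11:67170907-67171026 for *Myh2* and chr11:67237692-67237811 for *Myh4*. Capitals mark the letters TATAAA.
Myh1: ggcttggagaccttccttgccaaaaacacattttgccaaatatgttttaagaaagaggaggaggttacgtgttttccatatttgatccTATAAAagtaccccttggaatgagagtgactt
Myh2: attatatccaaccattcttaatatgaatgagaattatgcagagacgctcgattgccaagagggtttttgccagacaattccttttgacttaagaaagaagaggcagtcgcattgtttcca
Myh4: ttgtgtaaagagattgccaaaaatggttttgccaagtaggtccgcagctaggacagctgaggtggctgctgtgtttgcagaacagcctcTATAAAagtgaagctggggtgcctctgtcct
In the 250 bases before the start, read on the gene's strand, TATAAA began 32 bases before the *Myh1* start and 31 and 213 bases before the *Myh4* start, and these letters were not in the *Myh2* window. TATAAA on that strand occurred in 7.59% of 32851 promoter windows of the same length. Counting either strand, the share was 12.4%. The letters CANNTG, the core of sites for muscle basic helix-loop-helix factors, occurred 2 times before *Myh4*, not before *Myh1* or *Myh2*, and in 66.2% of all windows. A match is a run of letters and not a measured binding site.

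Mixed spots made up 63.1% of muscle spots in the UVR plus 9-cis HPR section (99 of 157, 55.0 to 70.6%), 31.5% in the UVR plus retinol section (41 of 130, 23.7 to 40.3%), 28.1% in the UVR section (47 of 167, 21.5 to 35.6%) and 0% in the control section (0 of 25, which allows a share of up to 12% by a limit of 3 counts). These intervals count spots as if they were independent, which adjoining spots are not, so their overlap does not compare the conditions. Since the control held no mixed spot, UVR could not be compared with control within them. The 25 control muscle spots lay only at both ends of the array, in columns 0 to 6 and 117 to 127. In those same columns, mixed spots were 1 of 28 muscle spots under 9-cis HPR (3.57%, 0.0904 to 18.3%), 10 of 12 under retinol (83.3%, 51.6 to 97.9%), 6 of 26 after UVR alone (23.1%, 8.97 to 43.6%) and 0 of 25 in the control. The position of the sampled muscle thus moved with these shares, and its part in the differences between sections was not tested.

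**Figure D1:**
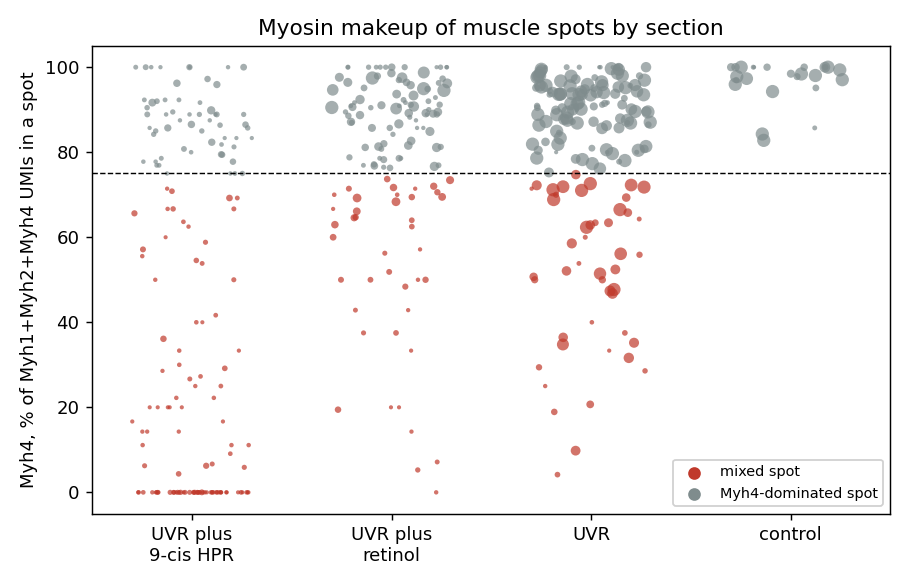
Each point is 1 muscle spot, placed by the percent of its *Myh1*, *Myh2* and *Myh4* UMIs that came from *Myh4* (vertical axis) in the 4 sections (horizontal axis, points spread sideways at random), with larger points for more myosin UMIs up to 200. Red points under the dashed line at 75% are mixed spots and grey points are Myh4-dominated; 47 points of the 9-cis HPR section lie at 0%, and none of the 25 control points falls under the line.

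Depth differed between the sections. Mixed spots held 65274 UMIs in all under 9-cis HPR, 36424 under retinol and 94880 after UVR alone, with medians of 614, 870 and 1981 UMIs per spot. The median Myh4-dominated spot held 595.5, 702 and 1640 UMIs there, and 876 UMIs in the control. The median number of myosin UMIs per mixed spot was 9 under 9-cis HPR, 26 under retinol and 96 after UVR alone, so the *Myh4* share of a spot is coarse under 9-cis HPR: 55 of its 99 mixed spots had fewer than 10 myosin UMIs, against 10 under retinol and 3 after UVR alone. The upper 95% bound of a spot's own *Myh4* share was under 75% in 79, 15 and 30 mixed spots of the 9-cis HPR, retinol and UVR sections. Among muscle spots with at least 20 myosin UMIs, the mixed share was 30.6% under 9-cis HPR (11 of 36), 27.3% under retinol (24 of 88), 26.7% after UVR alone (40 of 150) and 0% in the control (0 of 22). With every spot of at least 10 myosin UMIs thinned to 10, it was 54.1% (46 of 85), 28.6% (32 of 112), 30.6% (49 of 160) and 4.17% (1 of 24) in that order of sections. The share under 9-cis HPR was therefore higher with thinning and not among spots with at least 20 myosin UMIs. Both settings drop spots by the same myosin counts that sort them. Under 9-cis HPR the median mixed spot had 9 myosin UMIs and the median Myh4-dominated spot 17. A minimum of 20 thus removed mixed spots more often there, and it cannot decide whether the share differs in deeper spots. Near the limits, 17 mixed spots had exactly 5 myosin UMIs and 14 muscle spots just missed with 4; the highest *Myh4* share inside was 74.7% and the lowest outside 75%, with 21 mixed spots from 70% up and 33 Myh4-dominated spots under 80%.

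*Myh1* was the myosin that set these spots apart, and *Myh2* was a minor part of them. Of the myosin UMIs of mixed spots, *Myh1* gave 73.2% under 9-cis HPR (834 of 1140 UMIs, 70.5 to 75.7%), 37.0% under retinol (434 of 1174, 34.2 to 39.8%) and 41.5% after UVR alone (2020 of 4871, 40.1 to 42.9%). *Myh4* gave 23.1%, 59.5% and 57.6% in the same order, and *Myh2* gave 3.77% (43 UMIs), 3.49% (41 UMIs) and 0.883% (43 UMIs). *Myh1* was detected in all 187 mixed spots and *Myh2* in 81 of them. *Myh1* had the most myosin UMIs in 111 mixed spots, *Myh4* in 75, *Myh2* in 0, and 1 spot was tied. A name that puts *Myh1* and *Myh2* on a par therefore goes beyond these counts. In the Myh4-dominated spots *Myh1* gave 10.8%, 8.08%, 9.19% and, in the control, 3.67% of myosin UMIs. Over all kept muscle spots, a share that does not use the 75% limit, *Myh1* gave 41.5% under 9-cis HPR (39.6 to 43.5%), 13.6% under retinol (12.7 to 14.4%), 15.1% after UVR alone (14.7 to 15.6%) and 3.67% in the control (3.18 to 4.22%). These 3 chains are close paralogs, and how well the assay's probes separate them is not given in the sources used here. Within a spot, fewer *Myh4* fibres and less *Myh4* RNA per fibre cannot be told apart, nor can fibres of 2 kinds side by side and fibres that hold both transcripts.

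*Myh1* per spot also varied widely within a section. Its share of a mixed spot's myosin UMIs had a lowest, median and highest value of 23.1%, 85.7% and 100% under 9-cis HPR, 10.0%, 37.5% and 100% under retinol and 24.2%, 45.6% and 95.8% after UVR alone. The median 9-cis HPR spot was mostly *Myh1*, and 47 of the 99 held no *Myh4* UMI, against 1 of 41 under retinol and 0 of 47 after UVR alone. In those sections 81, 13 and 17 mixed spots were led by *Myh1* and 18, 27 and 30 by *Myh4*. The level of *Myh1* in mixed spots was 12777 CPM (UMIs of the gene per 1000000 UMIs) under 9-cis HPR, 11915 CPM under retinol and 21290 CPM after UVR alone. *Myh4* stood at 4029, 19191 and 29595 CPM there. So the high *Myh1* share under 9-cis HPR went with low *Myh4* rather than with the highest *Myh1* level. Outside muscle, *Myh1* stood at 17.6, 16.1, 22.8 and 35.0 CPM in the 9-cis HPR, retinol, UVR and control sections, under its level in the mixed and in the Myh4-dominated spots of each section that holds them. Spots outside muscle were set apart by a low share of transcripts that include *Myh1*, so a low level there follows from the choice. Total myosin per 100 *Ckm* UMIs (*Ckm* encodes the muscle creatine kinase) was 27.8, 39.5 and 47.8 in the mixed spots, against 55.3, 67.3 and 90.1 in the Myh4-dominated spots and 98.9 in those of the control.

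Mixed spots lay next to one another. Each spot has 6 neighbours on the hexagonal array, and of the neighbours that were muscle spots, 85.7% were mixed around mixed spots under 9-cis HPR, 50.9% under retinol and 47.4% after UVR alone. Around Myh4-dominated spots 24.1%, 22.1% and 20.9% of muscle neighbours were mixed. The largest connected patch of mixed spots had 48, 12 and 13 spots in those sections, and 3, 5 and 6 mixed spots had no mixed neighbour. Neighbours share tissue and spilled transcripts, so they are not independent spots. Along the section, the mixed share of muscle spots under 9-cis HPR was 78.7% in columns 0 to 42, 90.5% in columns 43 to 85 and 24.1% from column 86 on. Under retinol the same windows held 2.86%, 32.6% and 51.0%, and after UVR alone 20%, 15.1% and 50.0%. Within a single section the makeup of the muscle sheet thus varied with position as widely as between sections.

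**Figure D2:**
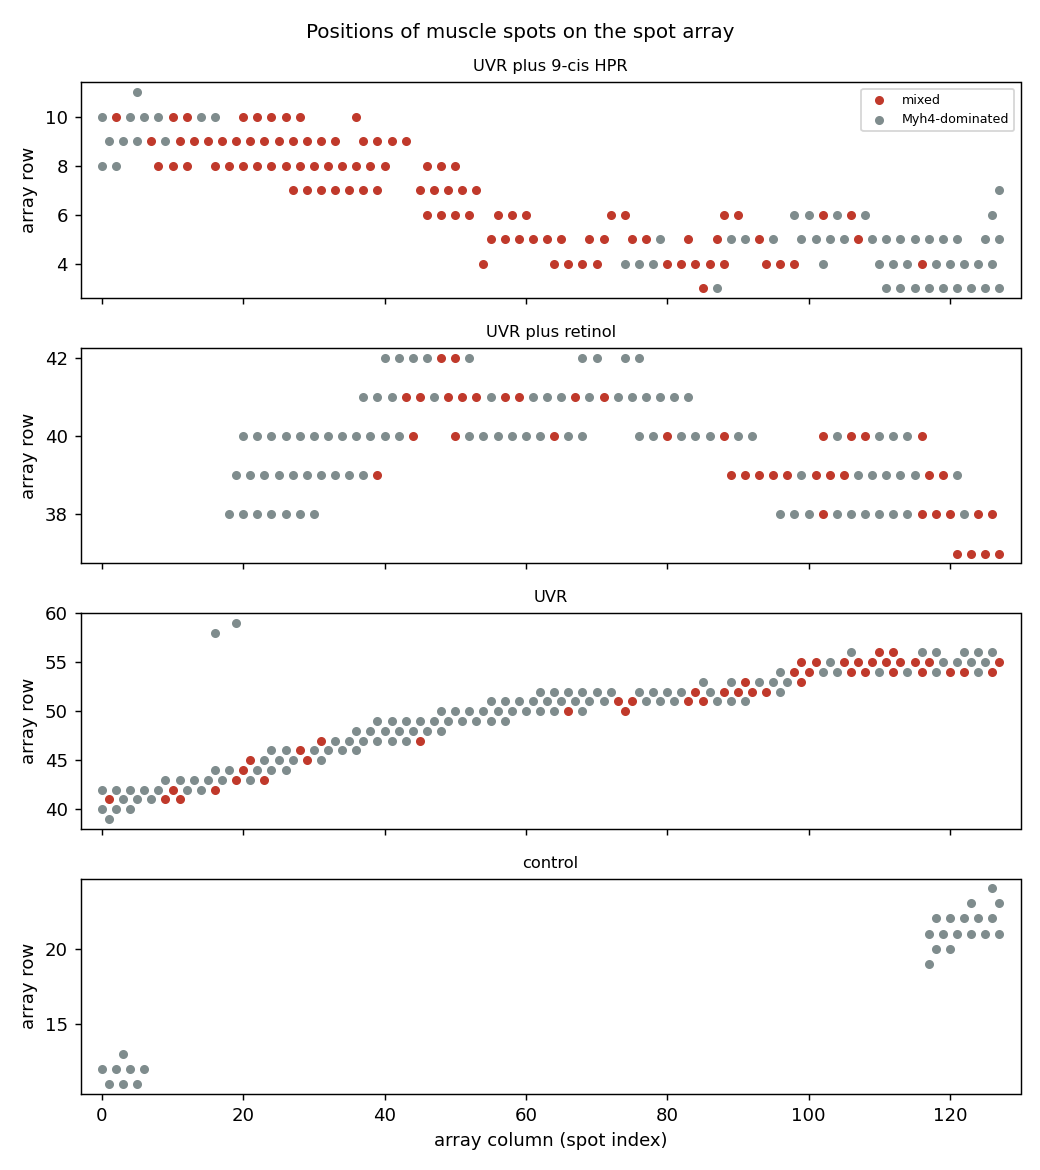
Muscle spots are drawn at their array column (horizontal axis) and array row (vertical axis, each panel with its own range), 1 panel per section, mixed spots in red and Myh4-dominated spots in grey. Under 9-cis HPR mixed spots make up most of columns 0 to 85 and Myh4-dominated spots most of the columns to their right; the control's 25 muscle spots occupy only the 2 ends.

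Beyond the myosins, mixed and Myh4-dominated spots were alike in most genes. UMIs were summed per section and class, scaled to CPM, and combined over the 3 sections that hold both classes as a Mantel-Haenszel ratio. Of 1133 genes with at least 50 UMIs, 11 were at least 2-fold higher in mixed spots (0.971%) and 11 at least 2-fold lower (0.971%). Scaling by the median gene gave 6 higher and 12 lower, scaling by muscle genes 14 and 8, and leaving the 3 myosins out of the totals 6 and 13. The count of higher genes was 5 without the 9-cis HPR section, 9 without the retinol section and 4 without the UVR section. At 1.5-fold the counts were 76 higher (6.71%) and 59 lower (5.21%). *Myh1* was 2.48-fold higher (2.35 to 2.62), *Myh2* 1.48-fold higher (1.15 to 1.90) and *Myh4* 3.17-fold lower, as the choice of spots requires. Of genes that the choice did not read, *Cfl2*, a muscle cofilin that turns over actin filaments (chromosome 12, 54858815 to 54862877), had 23, 13 and 14 UMIs in mixed spots, against 1, 7 and 25 UMIs in Myh4-dominated spots of the 9-cis HPR, retinol and UVR sections. Its combined ratio was 2.61 (1.59 to 4.30), and the UVR section's own ratio of 1.31 (0.629 to 2.61) did not exclude equality. *Cacnb1*, the beta subunit of the muscle calcium channel that couples excitation to contraction (chromosome 11, 98001508 to 98023034), had 10, 8 and 17 UMIs against 5, 7 and 15, a ratio of 2.12 (1.29 to 3.50). *Tomm40*, the pore of the mitochondrial import complex, had a ratio of 2.32 (1.30 to 4.14) and *Coq10a*, a coenzyme Q binding protein, one of 2.01 (1.15 to 3.50). *Rex1bd* had the highest ratio among those of the 1133 genes with the same direction in each section, 3.01 (1.68 to 5.38) on 60 UMIs. *Mettl26*, *Ipo4*, *Myo18a*, *Prr12*, *Irak1* and *Gm13889* had ratios between 1.96 and 2.06 on 50 to 94 UMIs each.

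Among the genes lower in mixed spots, *Htra1*, a secreted protease (chromosome 7, 130936203 to 130985658), had 7, 3 and 1 UMIs in mixed spots of the 9-cis HPR, retinol and UVR sections, against 8, 15 and 29 in Myh4-dominated spots, 3.49-fold lower over the 3 sections. *Oplah*, an enzyme of glutathione breakdown, had 5, 3 and 4 UMIs against 7, 16 and 34, 2.96-fold lower. *Serpina3n*, a secreted protease inhibitor, was 2.16-fold lower with 0 UMIs in the retinol mixed spots, and *Paxbp1*, a partner of the muscle progenitor factors Pax3 and Pax7, was 2.16-fold lower on 130 UMIs. *Mdm2*, which marks p53 for degradation, was 2.01-fold lower on 52 UMIs, and *Hdac11*, a histone deacetylase, 2.02-fold lower on 50 UMIs. Most of these genes had fewer than 100 UMIs over both classes, so each ratio is loose: with a minimum of 100 UMIs, 620 genes remained and only *Myh1* was 2-fold higher.

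Lists of muscle genes show how far the spots differed in other respects. A list member counted as measured with at least 20 UMIs in mixed spots. Over all 1118 such genes the median log2 ratio of mixed to Myh4-dominated spots was 0.09. Of them 10.8% were 1.5-fold higher and 3.04% 1.5-fold lower. This minimum reads the mixed spots alone, so a sparse gene passes it more easily when it is high there. With at least 50 UMIs over both classes the shares were 6.71% and 5.21%. Counts above 1 and ratios of sparse members in all lists below can be tilted upward by it. Of the sarcomere genes, 21 of 24 were measured, all 21 had a ratio above 1, and their median log2 ratio was 0.31. This count stayed at 21 under all 4 scalings and was 19, 17 and 20 of 21 in the 9-cis HPR, retinol and UVR sections taken alone. Across all measured genes 61.4% had a ratio above 1, with 54.1% to 66.5% over the 4 scalings and 54.6%, 58.4% and 57.5% in those sections alone. Past 1.5-fold were *Lmod2*, leiomodin of the thin filament, at 1.84 (1.55 to 2.17), *Klhl41*, a nebulin-stabilising adaptor, at 1.75 (1.07 to 2.88), and *Myot*, myotilin of the Z-disc, at 1.60 (0.835 to 3.05). *Lmod2* stood at 705, 961 and 2024 CPM in mixed spots, against 368, 623 and 1069 CPM in Myh4-dominated spots of the same 3 sections and 472 CPM in the control. It was higher in the mixed spots of each section, and only the retinol interval (0.969 to 2.44) included 1. *Actn2*, the alpha-actinin of all fibre types, had a ratio of 1.29 (1.15 to 1.45).

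The fast-fibre list went the other way. All 10 genes were measured, 7 had a ratio below 1 and 1 was 1.5-fold lower, with a median log2 ratio of -0.18 that was also negative under the other scalings. In the 9-cis HPR section alone the median was 0.03, with 4 of 10 genes below 1. Without the UVR section the combined median was -0.01, with 9 of 10 genes below 1, so the size of the median rests on the UVR section. Of all measured genes 54.6% and 59.1% had a ratio above 1 in those settings. *Actn3*, the alpha-actinin found in fast fibres, stood at 3141, 3926 and 5712 CPM in mixed spots, against 3835, 5657 and 9033 CPM in Myh4-dominated spots of the 9-cis HPR, retinol and UVR sections and 11786 CPM in the control. Its combined ratio was 0.663 (0.613 to 0.718). *Pvalb*, parvalbumin, the calcium buffer of the fastest fibres, stood at 935, 2663 and 4290 CPM in mixed spots, against 1366, 3412 and 5446 CPM in Myh4-dominated spots and 13005 CPM in the control. *Pvalb* was lower in the mixed spots of each section, by less than it differed between sections. Under 9-cis HPR its ratio was 0.684 (0.465 to 1.01), an interval that included 1. The troponins *Tnnt3* at 0.982 and *Tnnc2* at 1.02 were close to even. Of the slow-fibre genes only *Myoz2*, a calsarcin of slow and cardiac muscle, was measured, at 1.60 (0.921 to 2.78), and *Myh7*, *Tnnc1*, *Casq2* and *Myh7b* were at 0 in mixed spots.

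**Figure D3:**
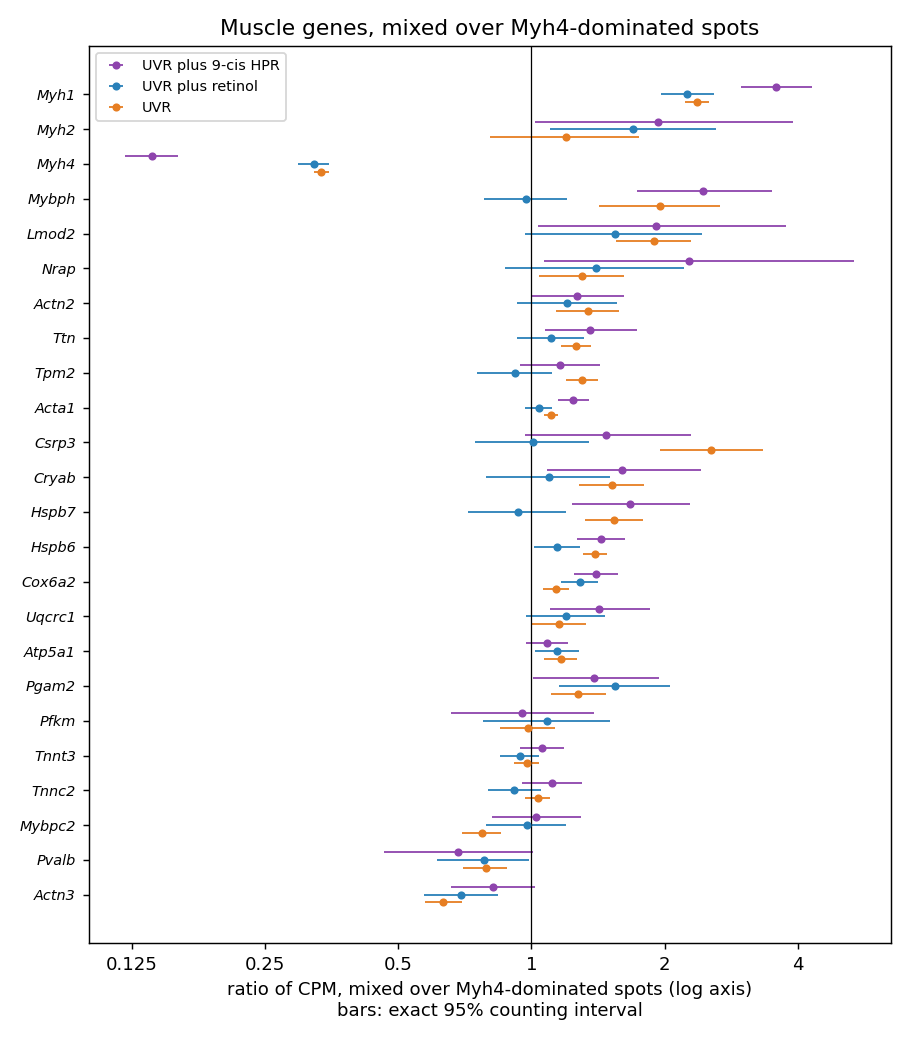
Points give the ratio of CPM in mixed over Myh4-dominated spots (horizontal log axis) for 24 muscle genes (vertical axis) in 3 sections, with exact 95% counting intervals as bars. *Myh1* lies right of 1 and *Myh4* left of 1 in every section, as the choice of spots requires. *Mybph* and *Csrp3* lie right of 1 after UVR alone and at about 1 under retinol. The points of *Actn3* and *Pvalb* lie left of 1 in all 3 sections, and the *Pvalb* bar under 9-cis HPR reaches just past 1.

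Genes of energy use differed little. Of 20 measured genes of oxidative metabolism 15 had a ratio above 1, as had 61.4% of all measured genes. Their median log2 ratio was 0.12 against 0.09 for all genes. Only *Ckmt2*, the mitochondrial creatine kinase, passed 1.5-fold, at 1.62 (0.950 to 2.76). *Cox6a2*, the muscle subunit of cytochrome c oxidase, stood at 15964, 18614 and 13659 CPM in mixed spots of the 9-cis HPR, retinol and UVR sections, against 11428, 14466 and 12020 CPM in Myh4-dominated spots and 7485 CPM in the control. Mixed spots were higher in each section, 1.22-fold overall (1.17 to 1.29). None of the 7 measured genes of glycogen use and glycolysis passed 1.5-fold. The highest was *Pgam2*, the muscle phosphoglycerate mutase, at 1.33, and *Pfkm*, muscle phosphofructokinase, was at 0.992. Of 9 measured genes of calcium handling, *Cacnb1* alone passed 1.5-fold, and *Ryr1*, the calcium release channel, was at 0.967.

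Of the stress genes, which include small heat shock proteins, all 7 that were measured had a ratio above 1, with a median log2 ratio of 0.33, and none passed 1.5-fold. The count was 6 of 7 with scaling by the median gene or without the myosins, and 5, 4 and 7 of 7 in the 9-cis HPR, retinol and UVR sections alone. Of all measured genes 61.4% had a ratio above 1, and 55.9% and 54.1% with those scalings. In those sections alone the share of all genes was 54.6%, 58.4% and 57.5%, so the retinol count was near it. *Cryab*, a chaperone of desmin filaments, had a ratio of 1.44 (1.25 to 1.65), *Hspb7* one of 1.39 (1.23 to 1.56) and *Hspb6* one of 1.35 (1.28 to 1.42). *Hspb7* showed the spread between sections, with ratios of 1.67 (1.24 to 2.29) under 9-cis HPR, 0.932 (0.721 to 1.20) under retinol and 1.54 (1.32 to 1.78) after UVR alone.

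*Mybph*, myosin binding protein H (chromosome 1, 134193418 to 134201237), was taken as a marker of these spots beside *Myh1* and *Myh2* and was not higher in them in every section. It had 176, 127 and 76 UMIs in mixed spots of the 9-cis HPR, retinol and UVR sections, or 2696, 3487 and 801 CPM. Myh4-dominated spots had 42, 276 and 91 UMIs, or 1103, 3581 and 411 CPM, and 83 UMIs, or 2064 CPM, in the control. The mixed spots were 2.44-fold higher under 9-cis HPR (1.74 to 3.51) and 1.95-fold higher after UVR alone (1.42 to 2.67), and at 0.974 (0.783 to 1.21) under retinol. Over the 3 sections the log2 ratio was 0.52; it was 0.27 without the 9-cis HPR section, 1.13 without the retinol section and 0.11 with at least 20 myosin UMIs per spot.

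Genes linked to loss of nerve input or to loading were sparse. Of 17 such genes 2 were measured, *Csrp3*, a muscle LIM protein of the Z-disc, and *Ankrd2*, a stretch-responsive ankyrin repeat protein, both at 1.60. *Csrp3* stood at 1241, 1922 and 1244 CPM in mixed spots of the 9-cis HPR, retinol and UVR sections, against 841, 1907 and 487 CPM in Myh4-dominated spots and 249 CPM in the control. Its ratio was 2.55 (1.95 to 3.34) after UVR alone, and the intervals under 9-cis HPR (0.969 to 2.30) and retinol (0.747 to 1.35) included 1. *Trim63*, a ubiquitin ligase of muscle atrophy, had 3, 2 and 9 UMIs against 0, 3 and 6, too few to describe. The acetylcholine receptor subunit *Chrna1* was at 0 in mixed spots, and so were *Pax7* of muscle stem cells, *Mymk* and *Mymx* of cell fusion and the embryonic myosin *Myh3*. The 7 stem cell and regeneration genes in the data summed to 1, 2 and 0 UMIs in mixed spots of the 9-cis HPR, retinol and UVR sections. *Myod1* and *Cdh15* were not in the data. Such low counts do not show absence at this depth. Of 14 genes of the retinoid response only *Tgm2*, transglutaminase 2, was measured, with 9, 2 and 14 UMIs in mixed spots against 1, 6 and 14 in Myh4-dominated spots. *Rarb*, *Cyp26a1*, *Cyp26b1*, *Crabp1*, *Stra6*, *Lrat* and *Rbp4* were at 0 in mixed spots. The whole list summed to 30, 14 and 36 UMIs in mixed spots of the 9-cis HPR, retinol and UVR sections. Its CPM ratio in mixed spots was 1.21 (0.721 to 2.02) for 9-cis HPR over UVR. For retinol over UVR it was 1.01 (0.505 to 1.92). Both intervals are wide and include 1, so these counts cannot decide whether a retinoid response took place in these spots.

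Markers of other cells moved with the spots in some sections. The 8 keratinocyte markers summed to 2206 CPM under 9-cis HPR, 4393 under retinol and 1718 after UVR alone in mixed spots, against 8065, 2465, 2030 and, in the control, 3108 CPM in Myh4-dominated spots, with no marker at 0. *Krt5*, a keratin of basal epidermal cells, was 4.18-fold lower in mixed spots under 9-cis HPR and 1.99-fold higher (1.47 to 2.67) under retinol. The 6 fibroblast markers summed to 1869, 494 and 263 CPM in mixed spots, against 1681, 1142, 420 and, in the control, 472 CPM in Myh4-dominated spots, with *Pdgfra* at 0 in mixed spots. Of the smooth muscle markers *Acta2*, *Myh11*, *Tagln* and *Cnn1* were at 0 in mixed spots and only *Des*, which skeletal muscle shares, was detected. *Pecam1* and *Kdr* of endothelium, *Lyz2* and *Adgre1* of macrophages and *Adipoq* and *Lep* of adipocytes were also at 0 there. Other members of these lists were detected at low counts. The 10 endothelial markers summed to 26, 5 and 11 UMIs in mixed spots of the 9-cis HPR, retinol and UVR sections. The 8 macrophage and dendritic markers summed to 11, 1 and 12 UMIs, and the 7 adipocyte markers to 7, 1 and 1. The part of keratinocyte and fibroblast transcripts in the ratios above was not tested.

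The mixed spots of the UVR plus 9-cis HPR section were then set against those of the UVR section. The 9-cis HPR section and the UVR section sat on different areas, as did the retinol and UVR sections compared next, and a difference of area cannot be told apart from the treatment. Of 408 genes with at least 50 UMIs over both, 89 were at least 2-fold higher under 9-cis HPR (21.8%) and 53 at least 2-fold lower (13.0%). This balance depended on the scale: scaling by the median gene gave 57 higher and 74 lower, and scaling by muscle genes 176 and 25. Muscle genes as a class took a smaller part of the RNA in these spots, with the fast-fibre list at 44168 CPM under 9-cis HPR and 62363 CPM after UVR alone. *Col1a2*, a chain of type I collagen (chromosome 6, 4505618 to 4541543), had 73 UMIs under 9-cis HPR, or 1118 CPM, against 15 UMIs, or 158 CPM, after UVR alone, 7.07-fold higher (4.02 to 13.3). In Myh4-dominated spots *Col1a2* was 4.31-fold higher between the same sections (2.79 to 6.61). The fibroblast marker sum, which contains *Col1a2*, was 7.09-fold higher in the mixed spots (4.58 to 11.4). *Tnfaip2*, a gene induced by tumour necrosis factor (chromosome 12, 111442450 to 111455018), stood at 4244 CPM against 780 CPM, 5.44-fold higher (4.20 to 7.13), and 8.48-fold higher in Myh4-dominated spots. *Igfbp7*, a secreted insulin-like growth factor binding protein (chromosome 5, 77349240 to 77408045), stood at 3891 against 769 CPM, 5.06-fold higher (3.88 to 6.65). *Mafa*, *Tmem223* and *Uck2* were 4.96-fold, 4.91-fold and 4.26-fold higher.

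At the low end, *Myh4* was 7.35-fold lower under 9-cis HPR than after UVR alone, although *Myh4* is one of the genes that chose the spots. *Pvalb* stood at 935 CPM against 4290 CPM, 4.59-fold lower (3.50 to 6.11), with 3.99-fold lower levels in Myh4-dominated spots as well. *Cmya5*, myospryn, an anchoring protein at the Z-disc (chromosome 13, 93040713 to 93144724), had 34 UMIs against 245, 4.96-fold lower (3.45 to 7.32), and *Atf4*, the transcription factor of the integrated stress response, had 6 UMIs against 45, 5.16-fold lower (2.19 to 14.8). *Nipsnap2*, a mitochondrial protein, and *Mlf1* were 5.33-fold and 4.59-fold lower. All 12 of these genes differed in the same direction in the Myh4-dominated spots. *Mybph* was 3.37-fold higher in the 9-cis HPR mixed spots (2.56 to 4.47), but its log2 ratio was 2.80 among spots of the left image side and -0.87 among spots of the right side, so no single value describes it. Over all 942 genes with at least 20 UMIs, 22.1% were 2-fold higher and 13.0% 2-fold lower, with a median log2 ratio of 0.26. Of 21 measured sarcomere genes 3 were 2-fold higher and 7 lower, with a median of -0.13. Of 10 fast-fibre genes 2 were lower, with a median of -0.59, and of 19 oxidative genes 3 were lower, with a median of -0.23. By the muscle-gene scale these medians were 0.37, -0.09 and 0.27, so only the fast-fibre median kept its sign.

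Retinol was compared with UVR alone in the same way, against the same UVR section. Of 324 genes, 37 were at least 2-fold higher under retinol (11.4%) and 28 at least 2-fold lower (8.64%), with 31 and 34 by the median gene and 63 and 15 by muscle genes. *Pdia3*, a disulphide isomerase of the endoplasmic reticulum (chromosome 2, 121413902 to 121438687), stood at 4036 CPM against 706 CPM, 5.72-fold higher (4.25 to 7.75), and 2.50-fold higher in Myh4-dominated spots (2.06 to 3.04). *Mybph* stood at 3487 CPM against 801 CPM, 4.35-fold higher (3.25 to 5.86), and was 8.72-fold higher in Myh4-dominated spots (6.86 to 11.2). *Ppp3ca*, a catalytic subunit of the calcium-activated phosphatase calcineurin, was 4.19-fold higher (2.86 to 6.19). *Jup*, plakoglobin of cell junctions, *Nccrp1* and *Krt5* were 4.35-fold, 3.71-fold and 3.54-fold higher. *Krt5* belongs to the keratinocyte markers, whose sum was 2.56-fold higher in the retinol mixed spots (2.04 to 3.20) and of which 3 of 5 measured were 2-fold higher, against 14.4% higher and 12.4% lower of 764 genes with at least 20 UMIs. Of 20 sarcomere genes 3 were 2-fold higher and 4 lower. *Nccrp1* had the opposite direction among spots of the left image side, at a log2 ratio of -0.58. *Ptpn3*, a tyrosine phosphatase, was 5.37-fold lower under retinol (2.20 to 17.1), with 5 UMIs against 70. *Mt2*, a metallothionein that binds metal ions (chromosome 8, 94172618 to 94173567), had 7 UMIs against 84, 4.61-fold lower (2.14 to 11.8). *Chac1*, a target of *Atf4*, *Sun2* of the nuclear envelope, *Atf4* and *Cmya5* were between 3.14-fold and 3.84-fold lower. *Sun2* was at 1.08 (0.700 to 1.63) in the Myh4-dominated spots, and the other 5 were lower there too, *Atf4* and *Chac1* with intervals that included 1.

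**Figure D4:**
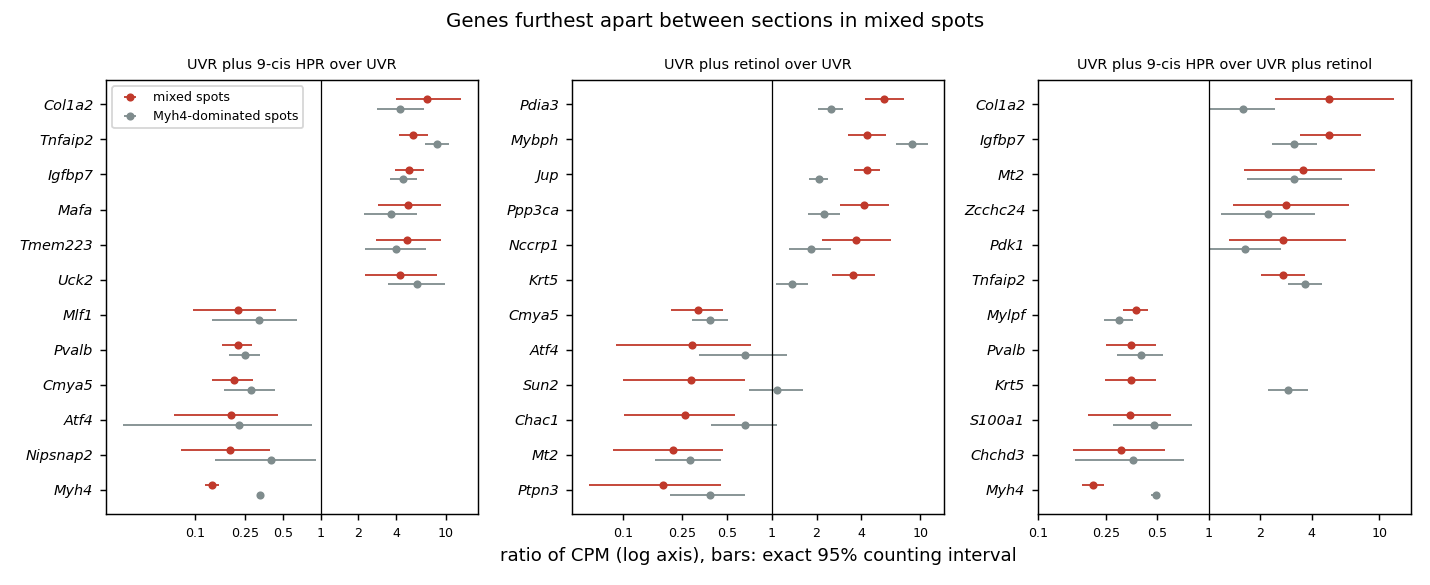
Each panel plots, for the 6 highest and 6 lowest genes of 1 comparison between sections, the ratio of CPM (horizontal log axis) in mixed spots (red) and in Myh4-dominated spots (grey), with exact 95% counting intervals as bars. The red and grey points mostly share a side of 1; *Krt5* in the right panel lies on opposite sides, 2.86-fold lower in mixed spots and 2.90-fold higher in Myh4-dominated spots.

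The treated sections shared a capture area, so their comparison does not cross areas. Of 287 genes, 12 were at least 2-fold higher under 9-cis HPR than under retinol in mixed spots (4.18%) and 6 at least 2-fold lower (2.09%), with 10 and 8 by the median gene and 23 and 6 by muscle genes. *Col1a2* was 5.09-fold higher (2.45 to 12.2), *Igfbp7* 5.06-fold (3.42 to 7.77), *Mt2* 3.59-fold (1.61 to 9.43) and *Tnfaip2* 2.71-fold (2.03 to 3.67). *Zcchc24* and *Pdk1*, a kinase that shuts pyruvate dehydrogenase, were 2.85-fold and 2.73-fold higher. On the low side stood *Myh4* at 4.76-fold and *Mylpf*, a fast regulatory light chain that also chose the spots, at 2.68-fold, with *Pvalb* at 2.85-fold (2.05 to 3.99). *Chchd3*, a protein of mitochondrial cristae, was 3.29-fold lower (1.80 to 6.20) and *S100a1*, a calcium sensor of muscle, 2.88-fold lower (1.67 to 5.08). *Krt5* was 2.86-fold lower under 9-cis HPR in mixed spots and 2.90-fold higher in Myh4-dominated spots (2.22 to 3.80). Of all 680 genes with at least 20 UMIs 11.2% were 2-fold higher and 3.97% lower, while of 10 fast-fibre genes 0 were higher and 1 lower, and none of 17 sarcomere or 16 oxidative genes was 2-fold apart. *Mybph* was at 0.773 (0.612 to 0.979) in mixed spots and 0.308 (0.217 to 0.427) in Myh4-dominated spots. These directions assume that the labels' upper section is the one at smaller image rows; the spot grid runs the other way, and reading it instead exchanges both treated sections, as well as UVR and control.

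**Figure D5:**
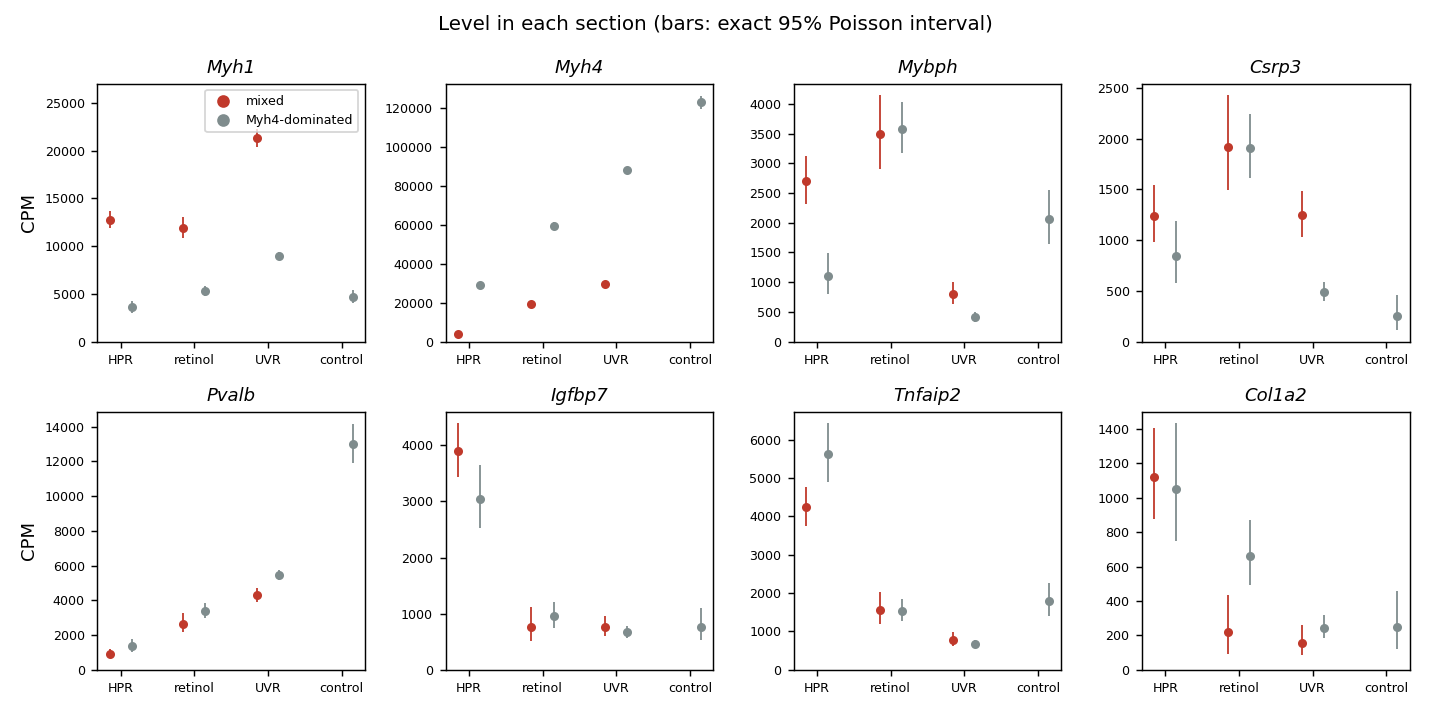
Levels in CPM (vertical axes, starting at 0) of 8 genes in mixed spots (red) and Myh4-dominated spots (grey) of each section (horizontal axis, HPR for UVR plus 9-cis HPR and retinol for UVR plus retinol), with exact 95% Poisson intervals as bars. The control has no mixed spots; *Myh4* and *Pvalb* are lowest under 9-cis HPR and highest in the control, while *Igfbp7*, *Tnfaip2* and *Col1a2* are highest under 9-cis HPR in both kinds of spot.

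Across the 3 sections with mixed spots, *Pvalb* in those spots was ordered 9-cis HPR, retinol, UVR from low to high and neighbours in that order differed beyond counting error: retinol was 1.61-fold lower than UVR alone (1.29 to 2.03) and 9-cis HPR 2.85-fold lower than retinol. *Csrp3* stood highest under retinol, at 1922 CPM, and the 9-cis HPR and UVR sections, at 1241 and 1244 CPM, did not differ beyond counting error. Mixed spots were also split by their leading myosin. *Cox6a2* stood at 15940 CPM in *Myh1*-led and 16068 CPM in *Myh4*-led mixed spots under 9-cis HPR, at 21590 and 17946 CPM under retinol and at 14022 and 13492 CPM after UVR alone. *Pvalb* stood at 847 CPM in *Myh1*-led and 1318 CPM in *Myh4*-led spots under 9-cis HPR (45 and 16 UMIs). It stood at 3816 and 2282 CPM under retinol (35 and 59 UMIs) and at 4040 and 4405 CPM after UVR alone (121 and 286 UMIs). *Mybph* stood at 2992 CPM in *Myh1*-led and 1401 CPM in *Myh4*-led spots under 9-cis HPR (159 and 17 UMIs). It stood at 4471 and 3249 CPM under retinol (41 and 84 UMIs) and at 734 and 832 CPM after UVR alone (22 and 54 UMIs). No interval is given for this split, so no order between *Myh1*-led and *Myh4*-led spots is drawn from these values.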

How the data were processed

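The authors deposited raw UMI counts per gene and spot; the submitters' processing notes list Space Ranger 2.0.0, Seurat 4.1.0 and mm10. Sections were fresh-frozen, and the library kit was the probe-based one meant for fixed tissue, per the labels. Each matrix held 19465 genes, and 430 spot barcodes occurred on both areas; they mark array positions. Sections were split by image row. Spots were classed as stated in the text, and counts were summed per section and class and divided by the total to give CPM. Shares have Clopper-Pearson intervals and ratios of 2 sums exact binomial ones; Mantel-Haenszel ratios combine 3 sections. A total of 3 counts corresponds to 46.0, 82.4 and 31.6 CPM in mixed spots of the 9-cis HPR, retinol and UVR sections. With 1 section per group no test was made. Interval coverage was tested only on simulated independent Poisson counts, the model the intervals assume, so it does not cover the variation between adjoining spots. The mixed spots, the 20 gene lists and the comparisons were chosen with earlier results of these data known. Named genes are the 12 highest and 12 lowest ratios between mixed and Myh4-dominated spots among genes with at least 50 UMIs and the same direction in each section with a UMI, the 6 highest and 6 lowest per comparison between sections, and list members at the ends of their lists; other members of the same lists and *Trim63* were added after their values were seen. Coordinates come from RefSeq genes of GRCm38.p6, joined by symbol for 19106 genes, and sequences from RefSeq promoters of that build. Python 3.11.15 with scipy 1.17.1, numpy 2.4.6 and pandas 2.3.3 was used.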

Additional observations from a re-analysis of the deposited data

Results flagged for a closer look

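*Krt5* differed in direction between the treated sections: mixed over Myh4-dominated spots it stood at 0.239 (0.173 to 0.328) under 9-cis HPR and at 1.99 (1.47 to 2.67) under retinol. With 1 section per group the difference between sections was not tested.

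Muscle spots with fewer than 200 UMIs were not used above. In them *Myh1* gave 45.0% of 60 myosin UMIs under 9-cis HPR (32.1 to 58.4%), against 21.6% of 97 under retinol (13.9 to 31.2%), 9.63% of 301 after UVR alone (6.55 to 13.5%) and 9.09% of 44 in the control (2.53 to 21.7%). The value under 9-cis HPR lies above the control's interval, that under retinol at its upper bound and that after UVR alone inside it. The control's interval rests on 44 myosin UMIs, so a value within it does not show 2 sections to be alike. These intervals cover counting error only, and the treated sections and the control sat on different capture areas. Muscle spots are also chosen by a share of transcripts that includes *Myh1*, so these spots are no independent check of the main values. The difference between sections was not tested.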

How the results depend on the processing

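No paired analysis was possible because each group was 1 section. The mixed share of muscle spots under 9-cis HPR was 30.6% with at least 20 myosin UMIs, 88.5% with a *Myh4* limit of 90%, 54.1% with thinning and 3.57% in the control's muscle columns, an alternative chosen after seeing the data; under retinol it was 15.4% with a limit of 60%, 62.3% with 90% and 83.3% in those columns, and after UVR alone 16.2% and 56.9% with these limits. Reading groups by the spot grid gave 31.5%, 63.1%, 0% and, in the control, 28.1%. The *Myh1* share of mixed spots was 55.2% under 9-cis HPR and 33.8% under retinol with at least 20 myosin UMIs, 81.4%, 56.5% and 56.1% in the 9-cis HPR, retinol and UVR sections with a limit of 60%, and 77.9%, 43.7% and 47.0% as the mean over spots. The 11 genes 2-fold higher in mixed spots became 1 with at least 100 UMIs, 1817 with no minimum, 6 with the median scale, 5 with at least 20 myosin UMIs and 6 without the myosins in the totals (added after seeing the data). The count was 5, 9 and 4 without the 9-cis HPR, retinol and UVR sections. Leaving out the control could not change it, since the control held no mixed spots. Genes 2-fold apart were also counted with at least 100 UMIs, with no minimum and in spots led by *Myh1* (added after seeing the data). In that order they were 65, 4343 and 87 for 9-cis HPR over UVR, against 142 in the main setting. For retinol over UVR they were 28, 4279 and 26, against 65 in the main setting. For 9-cis HPR over retinol they were 9, 3714 and 28, against 18 in the main setting. With at least 20 myosin UMIs the 9-cis HPR comparisons gave 89 over UVR and 10 over retinol. The left image side gave 70 for 9-cis HPR over UVR and 20 for retinol over UVR, the right side 84 for 9-cis HPR over UVR, and the muscle scale 29 for 9-cis HPR over retinol. Mixed neighbours of mixed spots were 64.0% under 9-cis HPR and 40.6% under retinol with at least 20 myosin UMIs. The direction turned for *Mybph* (9-cis HPR over UVR, right side, log2 -0.87) and *Nccrp1* (retinol over UVR, left side, -0.58), and under the spot grid, which exchanges both treated sections by construction, for *Col1a2* (-2.35), *Igfbp7* (-2.34), *Mt2* (-1.84), *Zcchc24* (-1.51), *Pdk1* (-1.45), *Tnfaip2* (-1.44), *Myh4* (2.25), *Chchd3* (1.72), *S100a1* (1.53), *Krt5* (1.52), *Pvalb* (1.51) and *Mylpf* (1.42). Under the grid reading neither comparison with UVR could be made, as that section then had 0 mixed spots. Of the named genes' other values 546 moved by less than their counting interval and 76 by more, with no change of a called direction. The 546 include 68 values with at least 100 UMIs per gene and 27 without the control. Neither setting can move a named gene's ratio, so these values do not measure stability. Apart from the grid and the setting's own construction, the causes were not tested. Depth limits single genes most under retinol, where 3 counts are 82.4 CPM.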
